A study of Homo sapiens with 3 samples.

Results

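Cornified envelope and squamous differentiation genes were examined in KYSE510, an established cell line of human esophageal squamous cell carcinoma. The group holds 42 genes of the 19266 in the deposited tables: envelope precursors, transglutaminases, kallikreins and other genes of the upper layers of squamous epithelium. They were found by matching Entrez gene identifiers to gene symbols, and all 42 were in the tables. The cells carried lentivirus with hairpin 1 (sh1) or hairpin 2 (sh2) against the transcript TCONS_02256997, or with a scrambled hairpin (control). The cells of all 3 groups were exposed to virus for 24 h and then kept for 48 h in 4 µM puromycin, so the control also passed infection and selection. The series screened for possible targets of that transcript, which was not analysed here. Each group is 1 sample with 3 numbered tables, treated as 3 libraries (n = 3). Nothing in the labels ties the numbers to cultures grown apart or to repeated sequencing of 1 library. Every SD, SE and adjusted p therefore measures the spread between the libraries of 1 sample, which may be technical, and no difference has a test between independent samples.

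Squamous epithelia renew from a basal layer, and cells that leave it switch on genes for a tough protein shell beneath the plasma membrane, the cornified envelope. Involucrin, envoplakin and periplakin form a first scaffold, small proline-rich proteins (SPRRs) are then joined to it, and transglutaminases crosslink the whole. Kallikreins and other serine proteases cut the contacts between the outermost cells so that these are shed, and inhibitors such as LEKTI, the product of SPINK5, restrain them. The esophagus keeps a stratified, mostly non-cornified surface whose upper cells are known for CRNN, MAL, SPRR3 and TGM3, genes that are often lost in squamous carcinoma.

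Total expected counts, which are estimates of reads per gene, were 14660821 to 14770512 with sh1, 15759270 to 16092417 with sh2 and 15012961 to 15414591 in control. Levels are given as CPM, counts scaled by the TMM-adjusted library size. In a library, 3 counts were worth 0.187 to 0.204 CPM, the limit that a count of 0 allows (counting error only). The 8 squamous markers KRT5, KRT14, KRT6A, KRT17, TP63, CDH1, SFN and PERP were all above 1 CPM in each group, and their summed level was 4420 CPM with sh1, 5550 with sh2 and 6550 in control. Most of that sum was KRT17 and KRT5, and the markers did not move together. KRT5, KRT14, TP63 and SFN were lower with both hairpins, and KRT17 and PERP with sh1. CDH1 was higher with sh1 (647 CPM against 426 in control). With sh2, KRT6A (79.4 against 54.6) and PERP (541 against 508) were higher. Of 6 markers of differentiated esophageal cells, CRNN, MAL, SPRR3 and TGM3 were below 1 CPM in each group. The sum of these 6 was 14.8 to 16.2 CPM over the sh1 libraries, 25.6 to 26.9 with sh2 and 35.5 to 38.7 in control, nearly all of it from KRT4 and KRT13. The part of this shift in the changes below was not tested. In bulk RNA, a change in the number of cells that express a gene and a change in RNA per cell cannot be told apart. Of other cell types, COL1A1 averaged 55.4 CPM with sh1, 68.2 with sh2 and 49.6 in control, while 5 of 6 fibroblast markers stayed below 1 CPM in each group. The leukocyte list summed to 134, 128 and 86.3 CPM in the same order, mostly CD68, with CD3E at 0 to 0.0226 CPM. The 4 endothelial markers summed to 18.2 CPM with sh1, 16.1 with sh2 and 14.2 in control, and the 6 glandular markers to 2480, 2840 and 2180, nearly all KRT8 and KRT18, with TFF3 and CDX2 at 0 counts.

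Members differed widely in level, and 13 of the 42 were not detected at a mean of 1 CPM in any group. In the other 29, detection reached 28 members with sh1, 26 with sh2 and 25 in control. The same 29 passed the filter on low counts and were tested. Per length, in the deposited TPM values (transcripts scaled by length and depth), LY6D, a surface antigen of squamous cells, was the highest member, with means of 650 TPM with sh1, 959 with sh2 and 742 in control. CSTA, which encodes the envelope protein and protease inhibitor cystatin A, followed in control with 576 TPM, then PPL with 154 TPM. The members not detected included the genes that define the esophageal surface. CRNN had 0 counts in every library, and MAL had 0 counts with sh1 and in control and 1 count with sh2. TGM3 had 3, 3 and 5 counts over the sh1, sh2 and control libraries. The calmodulin-like genes CALML3 and CALML5, the desmosomal cadherin gene DSG1 and KRTDAP were at or below 3 counts per group. Of the remaining 6, ALOX12B, KLK13 and TMPRSS11D stayed between 3 and 21 counts per group, and SPRR2E, SPRR3 and RPTN are given with their families below.

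**Figure D1:**
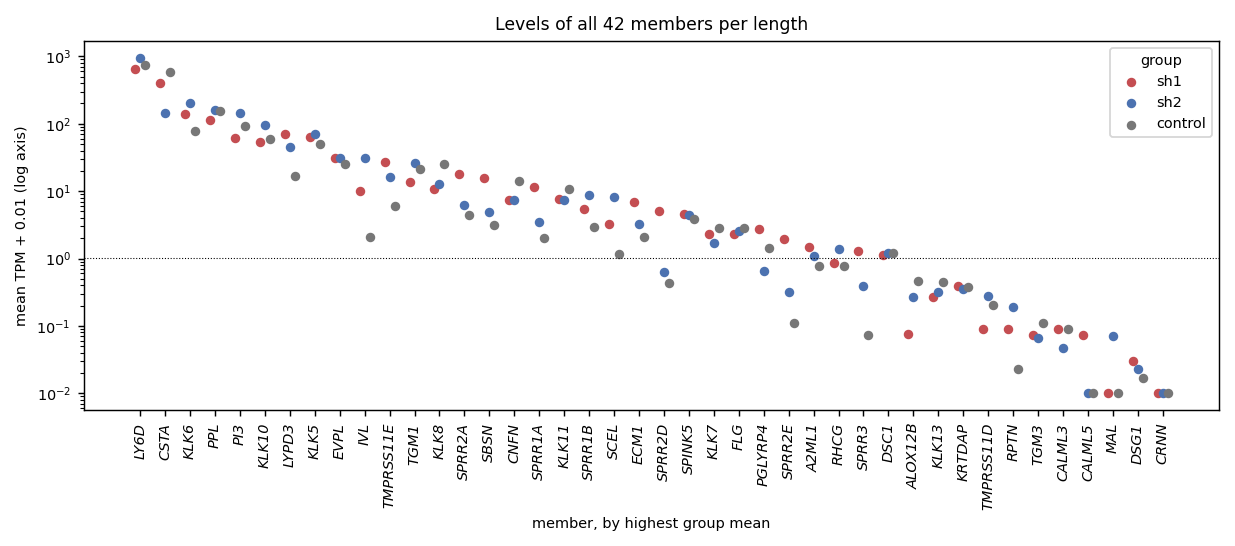
Mean level of all 42 members in TPM plus 0.01 (vertical log axis), sorted by the highest group mean, for sh1, sh2 and control (n = 3 libraries each, no error bars). The dotted line marks 1 TPM. LY6D, CSTA and KLK6 stand at the top, and the group ends with MAL, DSG1 and CRNN.

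Against control, sh1 changed 25 of the 29 tested members, 16 higher (34.7% of all genes) and 9 lower (34.6%), and sh2 changed 24, 18 higher (34.2%) and 6 lower (34.3%) (edgeR's quasi-likelihood test, Benjamini-Hochberg adjusted p below 0.05 over all genes). In these libraries 69.3% of all 13580 tested genes were called with sh1 and 68.5% with sh2, so the number of members called says little by itself. At 2-fold or more, sh1 called 12 members, where 9.15% of all genes were called: 11 higher (3.93% of all genes) and 1 lower (5.21%). With sh2, 8 members passed 2-fold, where 7.75% of all genes did: 6 higher (3.14%) and 2 lower (4.61%). The median log2 fold change of the tested members was 0.38 with sh1 and 0.48 with sh2, beside 0.01 and 0.0046 over all tested genes. A mean of 1 CPM was reached by SPRR1A and SPRR2D with sh1 alone and by RHCG with sh2 alone. The count filter asked for 0.66 CPM in 3 libraries. SPRR2D was the one tested member that passed it only through 1 group, sh1, where it was high. It had to differ, its test adds no support, and it is among the 16 and 11 members higher with sh1. SPRR1A and SPRR1B were past the cut in 3 libraries of each hairpin and 1 of control. They too entered through the groups where they were high, so their tests against control add little support. PGLYRP4 was past the cut in 3 libraries each of sh1 and control and 0 of sh2. Its tests of sh2 add little support, and it is among the 6 and 2 members lower with sh2. Both hairpins called 12 members higher (19.4% of all genes), 4 lower (20.2%) and 5 in opposite directions (12.7%), and both are set against the same control libraries.

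Involucrin had the largest rise of the tested envelope precursors with sh2, and with sh1 it came after SPRR2D and SPRR1A. IVL (Entrez gene 3713), the scaffold protein to which other precursors are joined, had 9.57, 9.48 and 8.35 CPM in the sh1 libraries, 27.4, 26.7 and 29.8 with sh2, and 2.08, 1.66 and 1.58 in control. The 3 groups did not overlap, and sh2 stood above sh1. The fold changes were 5.12 with sh1 (log2 2.36 ± 0.15 SE, adjusted p = 7.77e-15) and 15.7 with sh2 (3.97 ± 0.11, adjusted p = 5.66e-23), and the difference between hairpins passed too (-1.61 ± 0.08, adjusted p = 4.92e-17). SCEL (8796), the gene of sciellin, an envelope precursor, had 4.21, 3.93 and 4.62 CPM with sh1, 10.2, 11.1 and 12.5 with sh2, and 0.976, 1.46 and 1.98 in control. It followed the order seen for IVL, with all 3 groups apart. The log2 change of SCEL was 1.53 ± 0.20 with sh1 and 2.93 ± 0.17 with sh2 (adjusted p = 1.09e-07 and 8.07e-16), and was lower with sh1 than with sh2 by a log2 difference of -1.41 ± 0.13. On the log2(FPKM + 1) scale, which understates low genes, both were called with smaller values, IVL 1.52 with sh1 and 2.93 with sh2, SCEL 0.68 and 1.62.

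**Figure D2:**
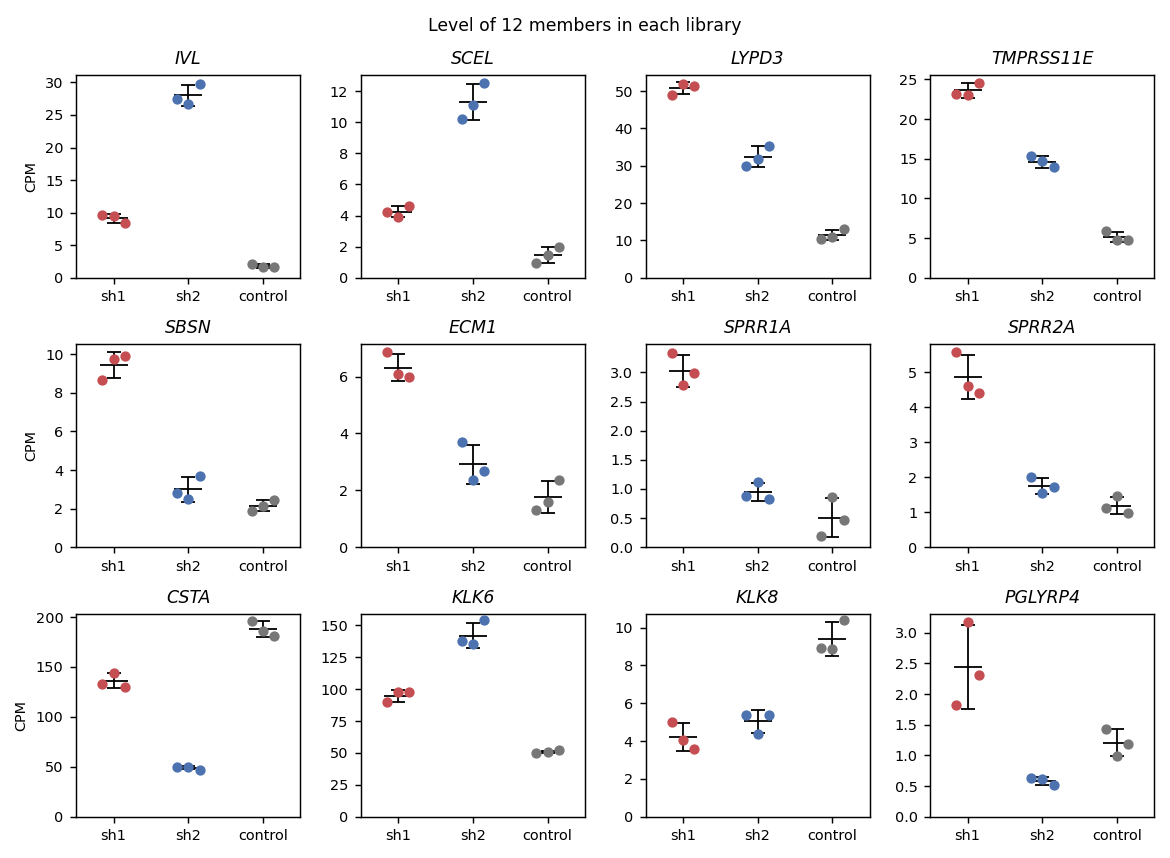
Level of 12 members in CPM (vertical axes from 0) in each library of sh1, sh2 and control. Points are libraries, and bars are the mean and SD (n = 3). IVL and SCEL are highest with sh2, LYPD3, TMPRSS11E, SBSN and ECM1 are highest with sh1, and CSTA and KLK8 are highest in control.

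The small proline-rich genes, neighbours in 1 cluster, took the opposite order for 3 of 4 tested, with sh1 above sh2. SPRR2A (6700) had 5.57, 4.61 and 4.41 CPM with sh1, 2.0, 1.56 and 1.73 with sh2, and 1.11, 1.46 and 0.989 in control. Only the sh1 libraries lay far above control, although sh2 did not overlap it. SPRR2A rose by 2.03 ± 0.21 with sh1 (adjusted p = 5.49e-10), and by 0.57 ± 0.25 with sh2 (adjusted p = 0.045), a call that DESeq2 did not make (adjusted p = 0.134). That sh2 call was lost without sh1 library 2 (0.56, adjusted p = 0.0512), sh2 library 1 (0.47, 0.151) or 3 (0.58, 0.0683), and without control library 1 (0.51, 0.111) or 3 (0.45, 0.158). SPRR2D (6703) had 1.7, 1.29 and 1.15 CPM with sh1, 0, 0.311 and 0.192 with sh2, and 0, 0 and 0.33 in control. Its 61 counts with sh1 stood against 5 in control, a ratio of 12.6 (95% exact Clopper-Pearson interval 5.1 to 40.1, counting error only), and the test, which it entered through sh1, called the rise (log2 3.56 ± 0.60, adjusted p = 4.8e-06). All control counts lay in library 3, and without it the fitted value was 7.41, which then depends on the prior count. With sh2 the 8 counts gave a ratio of 1.53 (0.441 to 5.94), and SPRR2D was called there when control library 3 was left out (adjusted p = 0.0285). The undetected SPRR2E had 24 counts with sh1, 4 with sh2 and 1 in control, ratios to control of 24.7 (4.03 to 1020) and 3.82 (0.378 to 188).

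Reads of the SPRR2 genes cannot be split with certainty: expected counts of SPRR2A, SPRR2D and SPRR2E were not whole in 8, 6 and 7 of the 9 libraries. Their family sum, with SPRR2B, SPRR2F and SPRR2G, was 7.81, 6.64 and 6.11 CPM with sh1, 2.07, 1.93 and 2.05 with sh2, and 1.11, 1.53 and 1.32 in control. This sum, added after the data were seen, rose with sh1 (log2 2.37 ± 0.18, adjusted p = 9.76e-13) and less with sh2 (0.61 ± 0.23, adjusted p = 0.0201), and the hairpins differed (1.76 ± 0.17, adjusted p = 8.26e-11). SPRR1A (6698) had 3.33, 2.78 and 2.99 CPM with sh1, 0.877, 1.12 and 0.831 with sh2, and 0.195, 0.865 and 0.462 in control. It rose by 2.57 ± 0.30 with sh1 (adjusted p = 1.02e-08) while sh2 overlapped control. The sh2 call of SPRR1A (0.89 ± 0.38, adjusted p = 0.04) was not made by DESeq2 (adjusted p = 0.0938) and was lost without sh2 library 1 or 2 (adjusted p = 0.0564 and 0.136) and without control library 1 or 3 (0.253 and 0.0997). Without control library 1 the sh2 value was 0.50, and without library 2 the values were 3.18 with sh1 and 1.5 with sh2.

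SPRR1B (6699), the near copy of SPRR1A, went the other way between hairpins, with 1.29, 1.49 and 1.36 CPM with sh1, 2.19, 2.24 and 2.37 with sh2, and 1.17, 0.466 and 0.528 in control. It rose by 1.63 ± 0.28 with sh2 (adjusted p = 7.88e-06) and 0.92 ± 0.32 with sh1 (adjusted p = 0.0113). The sh1 call was lost without control library 2 (0.69, adjusted p = 0.0742) or 3 (0.74, 0.0628). The summed SPRR1A and SPRR1B counts rose with each hairpin, by 1.84 ± 0.20 with sh1 and 1.38 ± 0.21 with sh2 (adjusted p = 1.31e-09 and 7.54e-07). Both genes had non-whole expected counts in 8 libraries, so their opposite order is uncertain. Each entered the test through the hairpin libraries, so the calls of the single genes against control add little support. SPRR3, the esophageal member of the family, was not detected, with 21 counts with sh1, 7 with sh2 and 1 in control, ratios to control of 21.6 (3.48 to 895) and 6.69 (0.859 to 301). RPTN, the gene of repetin, a calcium-binding envelope protein, had 5, 13 and 1 counts in the same order, ratios of 5.15 (0.576 to 244) and 12.4 (1.87 to 528).

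Among the abundant precursors, cystatin A fell with both hairpins, and EVPL and PPL moved less. CSTA (1475) had 133, 144 and 130 CPM with sh1, 49.8, 50.3 and 47.3 with sh2, and 196, 186 and 181 in control. All 3 groups were apart, with sh2 lowest. CSTA fell with both (log2 -0.47 ± 0.04 with sh1, -1.94 ± 0.04 with sh2, adjusted p = 2.97e-12 and 1.26e-25), the largest fall of any member with sh2. CNFN (84518), encoding cornifelin, had 1.49, 1.69 and 1.49 CPM with sh1, 1.38, 1.68 and 1.73 with sh2, and 3.38, 2.86 and 2.57 in control, and fell by 0.91 ± 0.21 and 0.88 ± 0.21 (adjusted p = 0.000359 and 0.000422). EVPL, encoding envoplakin, rose a little with both hairpins, to 84.6 ± 2.51 CPM with sh1 and 88.7 ± 2.21 with sh2, against 68.8 ± 0.633 in control (log2 0.30 ± 0.04 and 0.37 ± 0.04). Its partner periplakin, PPL, fell to 298 ± 1.93 CPM with sh1, and had 416 ± 17.8 with sh2 and 390 ± 7.51 in control. The sh2 difference of PPL (0.09 ± 0.03, adjusted p = 0.0058) was lost without sh2 library 3 (0.06, adjusted p = 0.0521) or control library 2 (0.08, 0.053). FLG, which encodes profilaggrin, a filament-binding protein of cornified cells, had 12.5 ± 0.0894 CPM with sh1, 14.0 ± 1.17 with sh2 and 14.7 ± 0.416 in control. Its small fall with sh1 (-0.23 ± 0.08, adjusted p = 0.0147) was not called by DESeq2 (adjusted p = 0.0803) or on either FPKM scale (0.145 and 0.151), nor without control library 1 (-0.21, 0.0547).

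The promoters of these genes were read because IVL, SCEL and the tested SPRR genes were all called higher with sh1. With sh2, SPRR2D was not called, and the calls of SPRR1A and SPRR2A were lost in several fits. Another reason was that AP-1, the FOS and JUN factor complex, is known to act on the IVL promoter. RefSeq windows of build GRCh38.p14 were available for 32 of the 42 members, and the 250 bases before the start were searched on both strands for TGANTCA, the AP-1 letters. The deposited tables use hg19, so the coordinates below belong to the RefSeq windows only. IVL lies at chr1:152908296-152908545 (+), SPRR1A at chr1:152983831-152984080 (+), SPRR1B at chr1:153030953-153031202 (+), SPRR2A at chr1:153057513-153057762 (-), SCEL at chr13:77535456-77535705 (+) and LYPD3 at chr19:43465609-43465858 (-). Capitals mark the AP-1 letters, and each sequence runs 5′ to 3′ on the strand of its gene and ends at the base before the start. The first 5 hold a match, and LYPD3, which rose with both hairpins, is shown as a promoter without one.
IVL: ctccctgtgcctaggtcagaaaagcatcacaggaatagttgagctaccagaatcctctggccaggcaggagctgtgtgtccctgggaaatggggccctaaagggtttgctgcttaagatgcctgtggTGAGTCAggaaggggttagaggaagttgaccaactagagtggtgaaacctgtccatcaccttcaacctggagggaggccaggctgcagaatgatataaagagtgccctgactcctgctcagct
SPRR1A: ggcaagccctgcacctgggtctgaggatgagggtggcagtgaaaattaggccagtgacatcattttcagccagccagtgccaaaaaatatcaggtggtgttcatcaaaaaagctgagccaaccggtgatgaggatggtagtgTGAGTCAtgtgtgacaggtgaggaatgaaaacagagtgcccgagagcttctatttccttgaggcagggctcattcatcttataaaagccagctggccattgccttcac
SPRR1B: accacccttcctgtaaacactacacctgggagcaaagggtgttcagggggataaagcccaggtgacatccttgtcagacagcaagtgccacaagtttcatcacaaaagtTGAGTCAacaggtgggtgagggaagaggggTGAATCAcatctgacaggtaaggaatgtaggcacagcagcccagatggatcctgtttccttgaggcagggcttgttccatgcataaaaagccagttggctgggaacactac
SPRR2A: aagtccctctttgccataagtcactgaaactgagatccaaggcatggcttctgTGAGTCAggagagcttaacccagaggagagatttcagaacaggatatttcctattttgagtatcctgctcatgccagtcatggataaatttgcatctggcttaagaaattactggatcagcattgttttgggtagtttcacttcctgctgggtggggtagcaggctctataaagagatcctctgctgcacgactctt
SCEL: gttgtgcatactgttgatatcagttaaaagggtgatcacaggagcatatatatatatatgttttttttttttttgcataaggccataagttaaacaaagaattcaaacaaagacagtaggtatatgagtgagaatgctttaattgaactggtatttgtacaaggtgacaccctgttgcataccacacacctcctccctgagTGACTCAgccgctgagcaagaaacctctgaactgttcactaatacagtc
LYPD3: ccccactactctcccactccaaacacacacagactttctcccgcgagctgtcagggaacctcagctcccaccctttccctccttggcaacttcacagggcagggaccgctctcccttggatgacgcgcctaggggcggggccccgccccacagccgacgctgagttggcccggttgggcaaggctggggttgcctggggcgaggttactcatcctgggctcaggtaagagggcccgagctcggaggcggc
The match starts 123 bases before the start in IVL, 108 in SPRR1A, 141 and 111 in SPRR1B, 197 in SPRR2A and 49 in SCEL.

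TGANTCA was found in 12 of the 32 member promoters (37.5%), against 8.06% of the 27305 genes with a window of the same length. TATAAA, the TATA box letters, was found in 13 members (40.6%) and 13.0% of all genes. GGAATG, the TEAD letters, was found in 9 members (28.1%) and 14.3% of all genes, and AACCNGTT, the letters bound by grainyhead factors, in 2 (6.25%) and 1.85%. The tested members with AP-1 letters numbered 8: IVL, FLG, SPRR1A, SPRR1B, SPRR2A, SCEL, SBSN and ECM1. Of these, 7 were called higher with both hairpins, all but FLG, while 4 of the 12 tested members without the letters were (KLK5, KLK6, TMPRSS11E and LYPD3), beside 19.4% of all genes. DESeq2 did not call SPRR1A, SPRR2A or SBSN with sh2, which left 4 of the 8 and 4 of the 12. SPRR1A and SPRR1B also entered the test through the hairpin libraries. SPRR2D, CSTA, EVPL, PPL, TGM1, KLK8, PI3, LY6D and RHCG were tested but had no window, so they are in neither set. Of these, EVPL alone was higher with both hairpins, and CSTA and KLK8 were lower with both. This comparison was made after the values were seen and has no test. The search was prompted by the rises of IVL, SCEL and SPRR genes, so the comparison adds no support. The share over all genes was not split by these letters. SPRR genes share ancestry, and IVL, SPRR1A, SPRR1B and SPRR2A lie near each other on chromosome 1. A match says that the letters are present, not that a factor binds there.

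The crosslinking enzyme TGM1 split the hairpins. TGM1 (7051), encoding transglutaminase 1, the membrane-bound enzyme that fixes precursors to the envelope, had 16.3, 17.1 and 13.4 CPM with sh1, 29.6, 31.7 and 29.2 with sh2, and 25.3, 24.0 and 22.6 in control. The groups did not overlap, with control between the hairpins. TGM1 fell by 0.62 ± 0.08 with sh1 (adjusted p = 3.88e-08) and rose by 0.33 ± 0.07 with sh2 (adjusted p = 7.69e-05), and the hairpins differed by -0.95 ± 0.07 (adjusted p = 1.65e-12). ALOX12B, a lipoxygenase of the epidermal lipid barrier, was below the detection level with 3 counts with sh1, 13 with sh2 and 21 in control.

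The kallikreins, serine proteases of shedding, did not move as a block although their genes neighbour each other. KLK6 (5653) had 89.6, 97.4 and 97.5 CPM with sh1, 138, 135 and 154 with sh2, and 50.0, 50.4 and 52.0 in control. It was the highest kallikrein with each hairpin per length, at 139 TPM with sh1 and 204 with sh2, against 77.9 in control. KLK6 rose by 0.90 ± 0.05 with sh1 and 1.49 ± 0.05 with sh2 (adjusted p = 3.99e-16 and 4.64e-22), and its neighbour KLK5 (25818), which activates other kallikreins, by 0.38 ± 0.06 and 0.54 ± 0.06 (3.13e-06 and 3.25e-09). KLK5 averaged 37.1 ± 3.26 CPM with sh1, 41.4 ± 2.36 with sh2 and 28.5 ± 0.15 in control. KLK10 (5655) had 66.4, 65.1 and 71.4 CPM with sh1, 120, 114 and 125 with sh2, and 70.3, 68.0 and 73.9 in control. The sh1 and control libraries overlapped, and KLK10 rose with sh2 (0.76 ± 0.04, adjusted p = 4.72e-16), with a value of -0.06 ± 0.05 for sh1 that did not pass (adjusted p = 0.217). The difference between hairpins in KLK10 was -0.83 ± 0.04 (adjusted p = 9.12e-17).

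KLK8 (11202), whose product neuropsin also acts in epidermal shedding, fell with both hairpins. It had 5.02, 4.06 and 3.6 CPM with sh1, 5.38, 4.36 and 5.37 with sh2, and 8.91, 8.85 and 10.4 in control, and both hairpins lay below every control library. The log2 changes of KLK8 were -1.15 ± 0.13 and -0.90 ± 0.13 (adjusted p = 7.48e-09 and 2.83e-07). KLK7, the chymotrypsin-like enzyme that cuts corneodesmosomes, was low, with 1.85 ± 0.275 CPM with sh1, 1.37 ± 0.378 with sh2 and 2.24 ± 0.441 in control. Its fall with sh2 (-0.71 ± 0.24, adjusted p = 0.0113) was not called by DESeq2 (adjusted p = 0.0589) and was lost without sh2 library 1 (-0.56, 0.0704) or control library 1 (-0.62, 0.0553). KLK11 had 3.75 ± 0.785 CPM with sh1, 3.86 ± 0.845 with sh2 and 5.18 ± 0.375 in control. Its falls (-0.46 ± 0.17 and -0.42 ± 0.17, adjusted p = 0.0165 and 0.0253) were not called by DESeq2 (0.0636 and 0.092). The sh1 call of KLK11 was lost without sh1 library 1 (-0.30, adjusted p = 0.137) or control library 2 (-0.43, 0.0505). Its sh2 call was lost without sh2 library 1 (-0.26, 0.185), control library 2 (-0.40, 0.0666) or control library 3 (-0.40, 0.0661). In genome order KLK5 and KLK6 rose, KLK8 fell, and KLK9, a neighbour outside the list, stood at 5.29 CPM with sh1, 15.5 with sh2 and 14.2 in control. KLK13 had 7, 9 and 11 counts in the same group order.

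**Figure D3:**
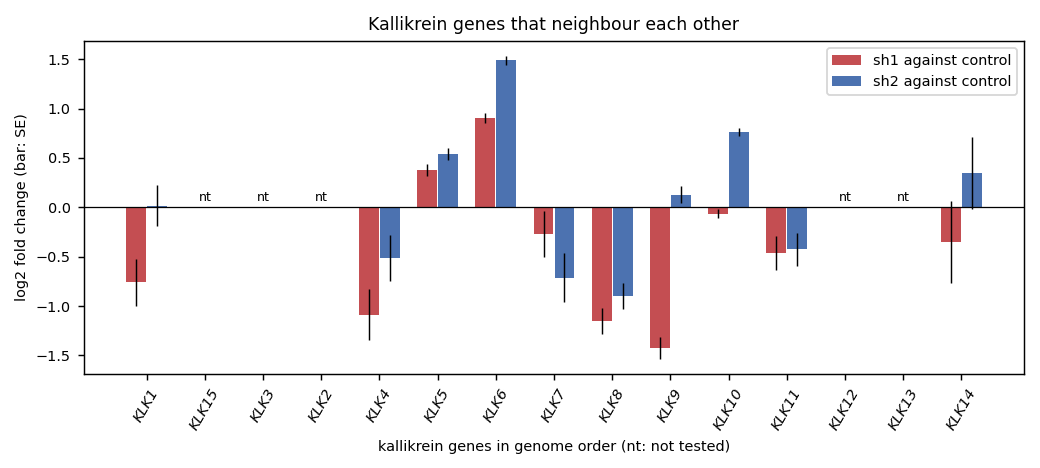
Log2 fold change against control of the kallikrein genes in genome order, for sh1 and sh2 (bars from 0, error bars are the SE of the fit, n = 3 libraries per group). KLK5 and KLK6 lie above 0 with both hairpins, KLK8 lies below, and KLK9 and KLK10 differ between hairpins. KLK1, KLK2, KLK3, KLK4, KLK9, KLK12, KLK14 and KLK15 are not members, and genes marked nt were too low to test.

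Of the membrane serine proteases, TMPRSS11E (28983), known from squamous epithelia, had 23.1, 23.0 and 24.6 CPM with sh1, 15.3, 14.7 and 13.9 with sh2, and 5.86, 4.72 and 4.81 in control. The groups did not overlap. TMPRSS11E was 4.59-fold higher with sh1 (log2 2.2 ± 0.09, adjusted p = 5.86e-19) and 2.85-fold higher with sh2 (1.51 ± 0.10, adjusted p = 4.79e-14), and sh1 exceeded sh2 by 0.69 ± 0.07 (adjusted p = 1.56e-09). Its relative TMPRSS11D, the airway trypsin-like protease, had 4, 15 and 10 counts over the sh1, sh2 and control libraries.

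The protease inhibitors differed from each other. PI3 (5266), the gene of elafin, an elastase inhibitor that is also joined to the envelope, had 12.4, 14.9 and 14.5 CPM with sh1, 32.0, 34.8 and 33.2 with sh2, and 21.0, 21.4 and 19.2 in control. Control lay between the hairpins, as for TGM1. PI3 fell by 0.56 ± 0.08 with sh1 and rose by 0.70 ± 0.07 with sh2 (adjusted p = 2.64e-07 and 8.58e-11), a difference between hairpins of -1.26 ± 0.07 (adjusted p = 8.46e-16). A2ML1 (144568), a broad protease inhibitor of the alpha-2-macroglobulin family, had 3.12, 3.25 and 2.71 CPM with sh1, 1.82, 2.36 and 1.53 with sh2, and 1.43, 0.865 and 1.78 in control. It rose with sh1 (1.15 ± 0.24, adjusted p = 9.06e-05). The sh2 libraries overlapped control (0.49 ± 0.26, adjusted p = 0.0959), and that value passed without control library 3 (0.72, 0.0354). SPINK5, which encodes the kallikrein inhibitor LEKTI, had 7.01 ± 0.803 CPM with sh1, 6.39 ± 0.396 with sh2 and 5.36 ± 1.28 in control. Its sh1 call (0.39 ± 0.14, adjusted p = 0.0175) was not made by DESeq2 (adjusted p = 0.0789) or on either FPKM scale (0.0759 and 0.0784). It was lost without sh1 library 2 (0.32, adjusted p = 0.0858) or 3 (0.36, 0.0516) and without control library 1 (0.23, 0.155). With sh2, SPINK5 did not pass (0.26 ± 0.14, adjusted p = 0.116), and did so without control library 2 (0.44, 0.0128).

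Among desmosomal cadherins of the upper layers, DSC1, encoding desmocollin 1, had 2.04, 2.24 and 1.49 CPM with sh1, 2.5, 1.74 and 2.05 with sh2, and 1.56, 2.79 and 1.71 in control. The 3 groups overlapped, and DSC1 was called in no comparison (adjusted p = 0.811, 0.853 and 0.663 for sh1 against control, sh2 against control and sh1 against sh2).

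**Figure D4:**
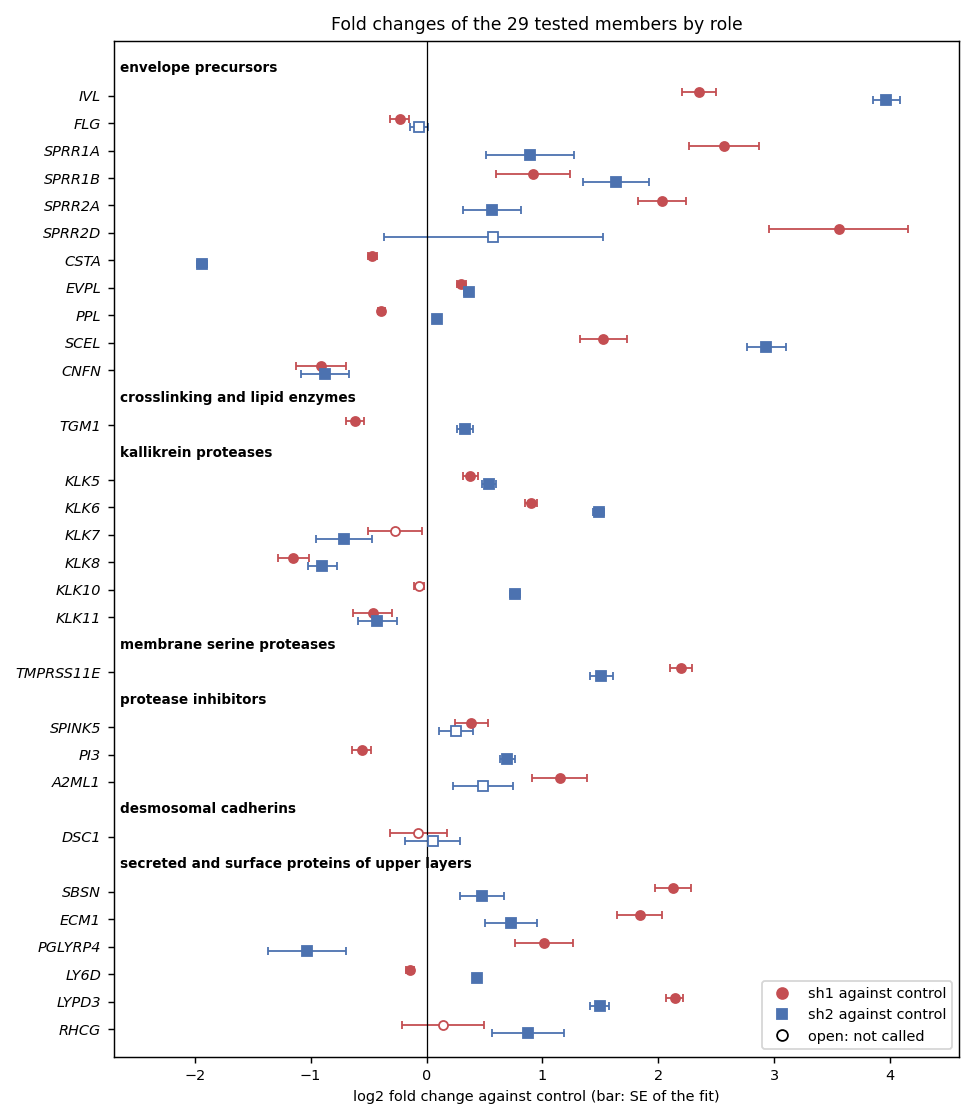
Log2 fold change against control with the SE of the fit for the 29 tested members, grouped by role, for sh1 (circles) and sh2 (squares); open symbols were not called. IVL and SCEL are farthest to the right with sh2, SPRR2D with sh1, and CSTA with sh2 is farthest to the left.

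Of the 6 tested genes of secreted and surface proteins of upper layers, LYPD3, SBSN, ECM1 and PGLYRP4 were over 2-fold higher with sh1. LYPD3 (27076), a GPI-anchored surface protein of upper squamous layers also called C4.4A, had 49.0, 51.8 and 51.5 CPM with sh1, 29.9, 31.9 and 35.4 with sh2, and 10.5, 10.8 and 13.1 in control. The 3 groups were apart. LYPD3 was 4.41-fold higher with sh1 (log2 2.14 ± 0.07, adjusted p = 2.57e-21) and 2.82-fold with sh2 (1.49 ± 0.08, adjusted p = 1.53e-16). SBSN (374897), the gene of suprabasin, a secreted protein of suprabasal cells, had 8.69, 9.75 and 9.91 CPM with sh1, 2.82, 2.49 and 3.71 with sh2, and 1.89, 2.13 and 2.44 in control. The sh1 libraries were far above the rest, and sh2 lay just above control. SBSN rose by 2.13 ± 0.16 with sh1 (adjusted p = 3.32e-13) and 0.48 ± 0.19 with sh2 (adjusted p = 0.0294). The sh2 call of SBSN was not made by DESeq2 (adjusted p = 0.0894) and was lost without sh2 library 3 (0.30, 0.208), control library 1 (0.39, 0.113) or control library 2 (0.46, 0.0651).

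ECM1 (1893), encoding a secreted matrix protein made by differentiating keratinocytes, had 6.86, 6.1 and 5.97 CPM with sh1, 3.69, 2.36 and 2.68 with sh2, and 1.3, 1.6 and 2.37 in control. It rose by 1.84 ± 0.19 with sh1 (adjusted p = 9.8e-10) and 0.73 ± 0.22 with sh2 (adjusted p = 0.00477), the sh2 call lost without sh2 library 1 (0.52, adjusted p = 0.0623). On the log2(FPKM + 1) scale the sh1 values of ECM1 and SPRR1A were 1.11 and 1.7, both called. PGLYRP4 (57115), which encodes a secreted peptidoglycan recognition protein, had 1.83, 3.18 and 2.31 CPM with sh1, 0.626, 0.622 and 0.511 with sh2, and 1.43, 0.998 and 1.19 in control. Control lay between the hairpins. PGLYRP4 rose by 1.01 ± 0.25 with sh1 and fell by 1.03 ± 0.34 with sh2 (adjusted p = 0.000762 and 0.00795), the one member past 2-fold in opposite directions. It was past the filter cut in 0 sh2 libraries and entered through sh1 and control, so the test of its fall adds little support.

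LY6D (8581), abundant in each group, had 203, 221 and 208 CPM with sh1, 302, 320 and 322 with sh2, and 235, 236 and 226 in control. Like TGM1 and PI3, it fell with sh1 (-0.14 ± 0.03, adjusted p = 0.000499) and rose with sh2 (0.44 ± 0.03, adjusted p = 8.17e-13). RHCG, an ammonium transporter gene of esophageal epithelium, was near the detection level, with 0.678 ± 0.0671 CPM with sh1, 1.13 ± 0.061 with sh2 and 0.614 ± 0.0756 in control. Its rise with sh2 (0.87 ± 0.31, adjusted p = 0.0147) was not called by DESeq2 (adjusted p = 0.113) and was lost without control library 3 (0.77, 0.0614). RHCG was past the filter cut in 3 libraries of sh2, 2 of sh1 and 1 of control, so its test against control adds little support.

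Set directly against each other, the hairpins differed for 21 of the 29 tested members, 10 higher with sh1 (34.2% of all genes) and 11 lower (35.6%), where 69.8% of all genes were called. At 2-fold or more 10 passed, where 8.28% of all genes did. There sh1 was higher than sh2 for SPRR1A, SPRR2A, SPRR2D, CSTA, SBSN, ECM1 and PGLYRP4, and lower for IVL, SCEL and PI3. These 7 and 3 members compare with 4.37% and 3.9% of all genes. SPRR2D, counted among the 10 and the 7, had the largest log2 difference, 2.98 ± 0.54 (3.75 without sh2 library 2). It entered the test only through sh1 and had to differ, so it adds no support. PGLYRP4 came next with 2.04 ± 0.29 (adjusted p = 3.44e-07), but it was past the filter cut in 0 sh2 libraries, so this test adds little support. Of the smaller differences, DESeq2 did not call SPRR1B, KLK5, A2ML1 or RHCG (adjusted p = 0.0788, 0.0734, 0.0525 and 0.182). The KLK5 difference (-0.16 ± 0.06, adjusted p = 0.0152) was lost without sh1 library 1 (-0.10, 0.145) or 3 (-0.14, 0.0708) or sh2 library 3 (-0.12, 0.0922). That of A2ML1 (0.67 ± 0.22, adjusted p = 0.00853) was lost without sh2 library 3 (0.53, 0.0535), and that of RHCG (-0.73 ± 0.31, adjusted p = 0.0358) without any 1 of the 6 hairpin libraries. FLG, KLK7 and KLK8 did not pass but did without sh2 library 1 (-0.23, adjusted p = 0.0219), sh2 library 3 (0.68, 0.0414) and sh1 library 1 (-0.39, 0.0422), in that order.

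Other genes of the same program were listed by role outside the 42, and their calls are set beside 69.3% of all genes called with sh1 (34.7% higher, 34.6% lower) and 68.5% with sh2 (34.2% higher, 34.3% lower). Of 34 further envelope and cornification genes, including LORICRIN and 15 late cornified envelope (LCE) genes that stayed below 1 CPM in each group, 12 were tested. With sh1, 2 were higher and 5 lower (58.3% called), and with sh2, 5 were higher and 4 lower (75.0%), with medians of -0.20 and 0.27 beside 0.01 and 0.0046 over all genes. CDSN, encoding corneodesmosin, had 1.2 ± 0.282 CPM with sh1, 1.13 ± 0.378 with sh2 and 0.461 ± 0.176 in control. It was past the filter cut in 1 control library and entered through the hairpins, so no test is given. CASP14, the caspase of cornification, fell by 0.90 ± 0.27 and 0.94 ± 0.26 (adjusted p = 0.00377 and 0.00235), and DMKN, encoding dermokine, by 0.39 ± 0.04 and 0.53 ± 0.04. HRNR, encoding hornerin, had 0.475 ± 0.0683 CPM with sh1, 1.13 ± 0.235 with sh2 and 0.549 ± 0.0999 in control, and passed the count filter only through sh2, so no test is given. The counts of this list include HRNR as higher with sh2 and CDSN as higher with both hairpins. They also include HOPX as lower with sh1. HOPX was below 1 CPM in each group and past the cut in 0 sh1 libraries, so it entered through sh2 and control.

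Of 18 further proteases and inhibitors, 12 were tested, with 4 higher and 4 lower with sh1 (66.7% called) and 5 higher and 2 lower with sh2 (58.3%), beside 69.3% and 68.5% of all genes. These counts include TMPRSS11A as lower with sh1 and ASPRV1 as higher with sh2. Each of these 2 genes passed the count filter only through the group where it was high. SERPINB2, a plasminogen activator inhibitor, had 1.13 ± 0.255 CPM with sh1, 1.99 ± 0.168 with sh2 and 4.17 ± 0.12 in control, and SLPI, a secreted leukocyte protease inhibitor, 80.2 ± 2.64, 65.2 ± 0.684 and 107 ± 1.04. KLK9 fell with sh1 (-1.43 ± 0.11). TMPRSS11A, a relative of TMPRSS11E, had 0.362 ± 0.171 CPM with sh1, 0.815 ± 0.266 with sh2 and 1.03 ± 0.222 in control, and did not pass the count filter without the control libraries, so no test is given. Of 16 genes for barrier lipids, 13 were tested, with 5 higher and 4 lower with sh1 (69.2% called) and 3 higher and 4 lower with sh2 (53.8%). ALOXE3, the lipoxygenase partner of ALOX12B, had 0.362 ± 0.282 CPM with sh1, 0.653 ± 0.294 with sh2 and 1.98 ± 0.276 in control, and likewise needed the control libraries to pass the filter. NIPAL4, also called ichthyin, fell by 1.21 ± 0.06 with sh1 and 0.93 ± 0.06 with sh2. ELOVL4, an elongase of very long fatty acids, fell with sh1 (-1.16 ± 0.09) and had -0.13 ± 0.07 with sh2 (adjusted p = 0.119). SMPD1, the acid sphingomyelinase gene, had 1.60 ± 0.65 CPM with sh1, 4.13 ± 0.243 with sh2 and 0.351 ± 0.0414 in control. It was past the filter cut in 0 control libraries and entered through the hairpins, so no test is given. The lipid counts include ALOXE3 as lower and SMPD1 as higher with both hairpins.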

How the data were processed

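Total RNA of KYSE510 cells was sequenced on the BGISEQ-500 platform, per the labels. The tools named in the submitters' processing notes are RSEM 1.2.12, Bowtie2 2.2.5, HISAT2 2.0.4 and DESeq2 1.4.5, with build hg19 and no roles. Per the file headers, the 9 deposited tables hold for each Entrez gene the expected count, TPM and FPKM. Of the deposited expected counts, 70.0% to 70.4% per library were whole (within 1e-06). Outside the SPRR genes, those of the members EVPL, KLK7, KLK10, A2ML1 and DSC1 were not whole in any of the 9 libraries. Their levels thus rest in part on reads assigned by estimate. No source used here states the strand setting, so near-identical genes, and antisense partners (of SCEL, A2ML1 and DSC1, for example), are uncertain. Symbols came from RefSeq GRCh38.p14.

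After rounding, expected counts were analysed with edgeR 4.0.16 in R 4.3.3: filterByExpr (13580 genes kept), TMM and 1 quasi-likelihood fit of all 9 libraries on group, with Benjamini-Hochberg adjustment over all tested genes. CPM is given as mean ± SD and log2 changes as ± SE, the SE being |log2 change| over the root of F. It can lie below counting error (IVL with sh1, 0.147 against 0.176; SPRR2D with sh1, 0.597 against 0.671). Tables of 1 sample differed by a chi-square per gene of 1.41 to 2.44 (mean count of 20 or more), above sampling noise. Alternatives were DESeq2 1.42.0, limma 3.58.1 on log2(deposited FPKM + 1 or 0.1) for genes averaging 1 FPKM or more, other scaling, filters and blocks, and leaving out each library. Members and lists were chosen with earlier results of these data known. Values per library were given for detected members called at 2-fold or more in any comparison and for the highest per role, and for some others; from each further list the 4 detected genes of largest mean change were named.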

Additional observations from a re-analysis of the deposited data

How the results depend on the processing

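No direction was reversed for any called change of the 29 tested members under the alternatives run. Requiring a 2-fold change left 12 of 25 members called with sh1 (1 lower), 8 of 24 with sh2 (6 higher, 2 lower) and 10 of 21 between the hairpins (3 lower). Detection gave 29 members at 1 CPM, 31 at 1 TPM, 30 at 0.5 CPM and 27 at 2 CPM. Leaving out 1 library gave 23 to 25 members called with sh1 (15 to 16 higher, 8 to 9 lower), 19 to 24 with sh2 (15 to 18 higher, 4 to 6 lower) and 19 to 21 between the hairpins (10 higher, 9 to 11 lower). DESeq2, which gave an adjusted p for 37 members, called 25, 19 and 18. These counts include undetected members outside the 29, so they are not the same sets. Of the main calls, DESeq2 did not make those of FLG, KLK11 and SPINK5 with sh1. With sh2 it did not call SPRR1A, SPRR2A, KLK7, KLK11, SBSN or RHCG, and between the hairpins SPRR1B, KLK5, A2ML1 or RHCG. With only the groups compared in the fit, SPRR1A and SPRR2A were not called with sh2 (adjusted p = 0.0521 and 0.0533), and with no filter on low counts SPRR2A with sh2 and RHCG between hairpins were not (0.056 in each case). With the table number as a replicate block the counts were 25, 24 and 21, unchanged. Correlations of deviations were -0.0767 to 0.0426 for same-numbered libraries and -0.0855 to 0.0673 for others. The numbers thus gave no sign of pairing, though with 3 libraries per group a weak pairing could be missed. On the FPKM scales, where 5 genes of the further envelope list and 8 of the protease list were tested, the first gave 4, 4 and 5 calls for sh1, sh2 and between hairpins, against 7, 9 and 8, and the second 5 between hairpins, against 8. With the tables of each sample summed, only fold changes remain and no test can be made. Depth limits the members near 1 CPM, where SPRR1A, SPRR1B, SPRR2D and RHCG rest on 5 to 134 counts per group.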
